A study of Mus musculus with 6 samples.

Results

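The regions described here are the Tfcp2l1 binding peaks of senescent mouse embryonic fibroblasts (MEFs) that lie away from tRNA genes. They were chosen by position alone, as the peaks of the senescent ChIP-seq list that overlap no tRNA gene of the RefSeq annotation by even 1 bp. Of 393 peaks in that list 228 met the rule, and the other 165 lie on tRNA genes. The presence of a peak in the list, as called by MACS2, is therefore the measured value that chose them, and their strength is given as a description. The 6 libraries of the study come from C57BL/6J MEFs taken at embryonic day 13.5 and hold 216828 peaks in all, with 1 library per condition and no replicate. Tfcp2l1 was immunoprecipitated with an anti-Tfcp2l1 antibody from senescent MEFs kept in 20% oxygen (Norm-Sen) and from MEFs immortalized in 3% oxygen (Hyp-Imm), and the second list holds 612 peaks. Open chromatin was measured by ATAC-seq in MEFs of passage 1 in 20% (Norm-Pro) and 3% oxygen (Hyp-Pro), in senescent MEFs in 20% oxygen (Norm-Sen) and in MEFs immortalized in 3% oxygen (Hyp-Imm). No transgene or deletion is named for any of these groups, and the cells are primary fibroblasts at the start of culture or after serial passage.

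Labels and file names disagree for the ATAC-seq lists. The file with the label Norm-Pro carries Hyp-Imm in its name, that with Norm-Sen carries Hyp-Pro, that with Hyp-Pro carries Norm-Pro, and that with Hyp-Imm carries Norm-Sen. The labels are used below. The 4 lists hold 69122, 61408, 47523 and 37770 peaks for Norm-Pro, Norm-Sen, then Hyp-Pro, then Hyp-Imm. As a check of the cell type, promoters of 10 fibroblast genes were open for 6, 7, 7 and 3 genes in that order. Col1a2, Vim and Twist1 were open in all 4 lists. Col1a1 and Pdgfra were open in Norm-Pro and Norm-Sen but in neither Hyp list, and Thy1, Prrx1 and S100a4 were not open in Norm-Pro or Norm-Sen. Of 12 markers of epithelial, endothelial, haematopoietic and neural cells between 4 and 6 were open in each list. The check therefore does not separate cell types in Hyp-Imm, where 3 fibroblast genes were open. Read depth is not given by the lists, and since a deeper library yields more peaks, levels are never compared between lists.

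Tfcp2l1 belongs to the CP2 and grainyhead family of transcription factors and binds a pair of similar half-sites set one turn of the helix apart. It is part of the network that keeps embryonic stem cells in the naive state. A tRNA gene is transcribed by RNA polymerase III from promoter elements inside the gene, the A box and the B box, and a few other small RNAs, such as the 7SL, 7SK, U6, vault and 4.5S RNAs, are made by the same polymerase from internal or upstream promoters. Satellite DNA and other sequences with many copies in the genome attract reads in most chromatin assays, because reads of all copies can be placed on the few copies that an assembly holds. A peak of such a sequence cannot be assigned to 1 copy.

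The sequences that carry the description are those at the summits, the positions of highest signal. First are windows of 40 bases on GRCm38 around the best match to the Tfcp2l1 consensus, shown because such matches stand mostly in members found in both ChIP-seq lists. Capitals mark the match, and the windows are chr2:168115131-168115170 on the minus strand, chr19:5803662-5803701, chr11:23255976-23256015, chr11:61175375-61175414, chr6:136468488-136468527 and chr7:73618465-73618504 on the plus strand.
Pard6b, distal: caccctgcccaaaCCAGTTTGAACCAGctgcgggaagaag
Malat1, upstream: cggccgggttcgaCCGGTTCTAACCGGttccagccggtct
Xpo1, promoter: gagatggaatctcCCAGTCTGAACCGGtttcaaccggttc
Usp22, promoter: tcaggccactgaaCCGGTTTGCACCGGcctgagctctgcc
Atf7ip, distal: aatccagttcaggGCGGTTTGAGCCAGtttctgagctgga
Chd2, distal: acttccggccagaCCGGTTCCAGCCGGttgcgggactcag

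The strongest members carry another kind of sequence. The windows of 100 bases at the summits of chr9:35305369-35305468, chr6:103649154-103649253 (an intron of Chl1) and chr13:44869579-44869678 (an intron of Jarid2), all on the plus strand of GRCm38, are shown because each stands for a group of sequences with several copies. Capitals mark the 11 bases around the summit.
Chromosome 9: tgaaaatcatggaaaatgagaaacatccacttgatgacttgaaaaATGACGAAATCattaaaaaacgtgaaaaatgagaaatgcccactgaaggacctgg
Chl1 intron: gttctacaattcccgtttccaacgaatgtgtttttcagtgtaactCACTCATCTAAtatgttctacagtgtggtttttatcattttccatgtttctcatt
Jarid2 intron: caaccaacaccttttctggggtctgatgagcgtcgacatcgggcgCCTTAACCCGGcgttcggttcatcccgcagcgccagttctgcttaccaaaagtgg

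The third group lies on copies of the 4.5S RNA gene, a rodent RNA polymerase III gene that RefSeq names Rn4.5s and places at chr6:47654921-47655094 on the minus strand of GRCm38. The gene is set beside the like stretches of 2 members, chr6:47650739-47650855 upstream of Ezh2 and chr6:128803014-128803108 in the Klrb1 gene cluster, both on the minus strand, to show how close they are. Capitals mark bases that differ from the gene or are added to it.
Rn4.5s gene: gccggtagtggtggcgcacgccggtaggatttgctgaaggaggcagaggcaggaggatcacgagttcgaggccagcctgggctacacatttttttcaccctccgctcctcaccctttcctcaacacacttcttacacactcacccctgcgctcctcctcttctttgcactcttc
Ezh2 upstream: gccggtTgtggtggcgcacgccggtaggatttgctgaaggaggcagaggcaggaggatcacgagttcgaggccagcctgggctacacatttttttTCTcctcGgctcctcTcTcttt
Klrb1 cluster: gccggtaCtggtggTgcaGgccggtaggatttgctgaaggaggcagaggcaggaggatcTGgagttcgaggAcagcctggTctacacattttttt

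Most of the 228 members were weak and narrow, and a small number were among the strongest peaks of the list. Strength is given by the fold enrichment at the summit over the local background of the same library and by the −log10 q at the summit, and members called strong or weak are ordered by −log10 q. The fold had a median of 7.72 and ran from 2.26 to 37.2, and the −log10 q had a median of 8.23 and ran from 2.38 to 170. The smallest width, 174 bp, was shared by 69 members, and the median width was 204 bp. Only 76 members reached a −log10 q of 10, yet members made up 8 of the 10 peaks of highest −log10 q in the whole list. Peaks on tRNA genes had a higher median fold of 10.1 and a median −log10 q of 15.3.

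Few members lie near the edge of the rule. The nearest to a tRNA gene, at chr3:96340938-96341152, was 4 bp away and had a fold of 8.52 and a −log10 q of 8.99. The 3 mitochondrial members were 184, 280 and 610 bp from a tRNA gene of the mitochondrial genome. The next members on the chromosomes were 7032 bp and 24300 bp away, at the promoters of Eef2k and Nkapl. The peaks just inside a tRNA gene, which are no members, overlapped one by 31, 44 and 46 bp and had folds of 4.64 to 4.76. No member held a sequence that aligned to a tRNA gene of the RefSeq annotation, and tRNA genes missing from it were not searched.

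To see what the members have in common, they were sorted by sequence into classes, a division made after their values had been seen and given with no test. The classes were taken in turn, so that each member is in 1 of them. On a small RNA gene, or a sequence like one, lay 17 members, while 6 lay on ribosomal DNA, 3 on the mitochondrial genome and 7 on unplaced contigs. A further 63 were multi-copy, meaning that 50% or more of the peak recurred elsewhere in the assembly at 90% identity or more. The remaining 132 were single-copy. A transcription start site (TSS) of a coding gene lay no more than 1 kb from the summit in 31 of these, called promoter members, and in the other 101 it did not.

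**Figure D1:**
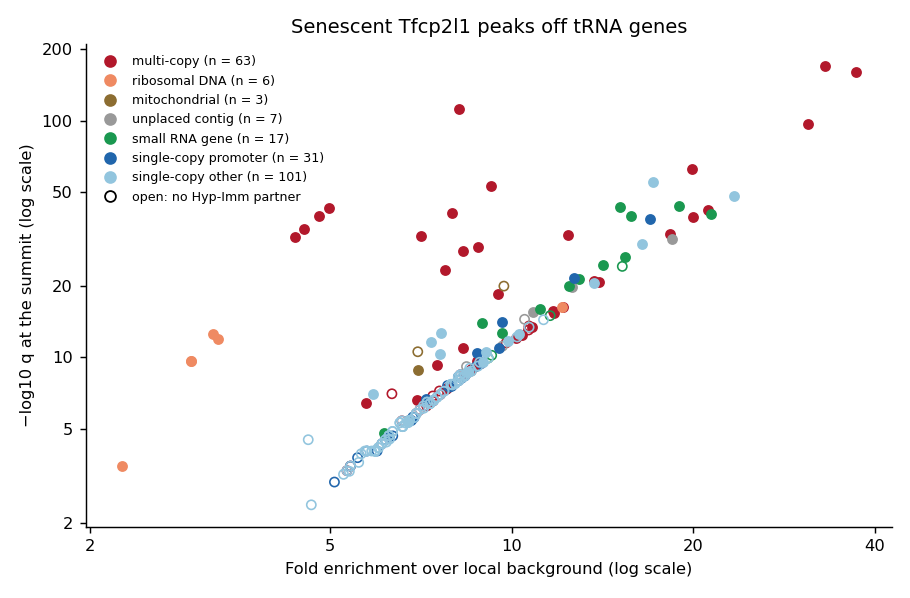
Fold enrichment over the local background (x axis, log scale) against −log10 q at the summit (y axis, log scale) for the 228 members in the senescent list, coloured by sequence class, with open circles for members that have no partner in the Hyp-Imm ChIP-seq list. Multi-copy members hold the highest −log10 q values, up to 170, and the open circles gather at low fold and low −log10 q.

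The strong members were mostly copies of repeated sequence or small RNA genes. Among the 76 members with a −log10 q of at least 10 there were 34 multi-copy members, 14 on small RNA genes, 5 single-copy members at promoters and 13 elsewhere. Of the 20 members with the highest −log10 q, 13 were multi-copy, 4 lay on small RNA genes, 1 was a single-copy promoter and 2 were other single-copy members. The single-copy members had a median fold of 7.23 and a median −log10 q of 6.38, against 12.4 and 20.1 for the small RNA class and 8.31 and 12.1 for the multi-copy class.

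By place, 47 members had such a TSS no more than 1 kb away (20.6%, 95% exact Clopper-Pearson interval 15.6 to 26.5), beside 19.1% of all 393 peaks. Of these 47, 9 are satellite-like members at predicted genes, and with RefSeq genes in place of GENCODE the share was 11.8%. Intervals here and below cover counting error only. A further 58 lay in introns, 12 in exons and 101 between genes. Of the 221 members on assembled chromosomes, 75 had their summit in soft-masked repeat sequence (33.9%, 27.7 to 40.6), beside 22% of all peaks of the list with sequence and 6.06% (2.94 to 10.9) of those on tRNA genes. The intervals of members and tRNA peaks did not overlap.

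A partner is a peak of the Hyp-Imm ChIP-seq list that overlaps by at least 1 bp. Of the 228 members 79 had one (34.6%, 28.5 to 41.2), whereas 49.6% of all 393 peaks did, and 116 of 165 peaks on tRNA genes (70.3%, 62.7 to 77.2). The members' share was thus below that of the tRNA peaks, with intervals that did not overlap. The sets were not matched on strength, with a median −log10 q of 8.23 for members and 15.3 for tRNA peaks. At a −log10 q of 10 or more, most peaks of both sets had a partner. Seen from the other list, 78 of its 487 peaks off tRNA genes (16.0%, 12.9 to 19.6) overlapped a senescent peak. Where a partner existed it lay at the same spot, with a median distance of 25 bp between the summits, and the 79 members met 74 different partners.

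The share with a partner was higher among strong members, 80.3% at a −log10 q of 10 or more, and differed between the classes. Most tRNA peaks at that limit had a partner as well, so the rise with strength is not particular to the members. All of the 20 strongest members had one, and so had 6 of 6 on ribosomal DNA, 12 of 17 on small RNA genes (70.6%, 44.0 to 89.7) and 35 of 63 multi-copy members (55.6%, 42.5 to 68.1). Among single-copy members 8 of 31 at promoters (25.8%, 11.9 to 44.6) and 14 of 101 elsewhere (13.9%, 7.79 to 22.2) had one. Of the 69 members with the smallest width 1 had a partner, and 56 of them overlapped no ATAC-seq peak. Both lists are cut at a q threshold, so a member without a partner had no called peak there, and its signal in the other library is not known from the lists.

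**Figure D2:**
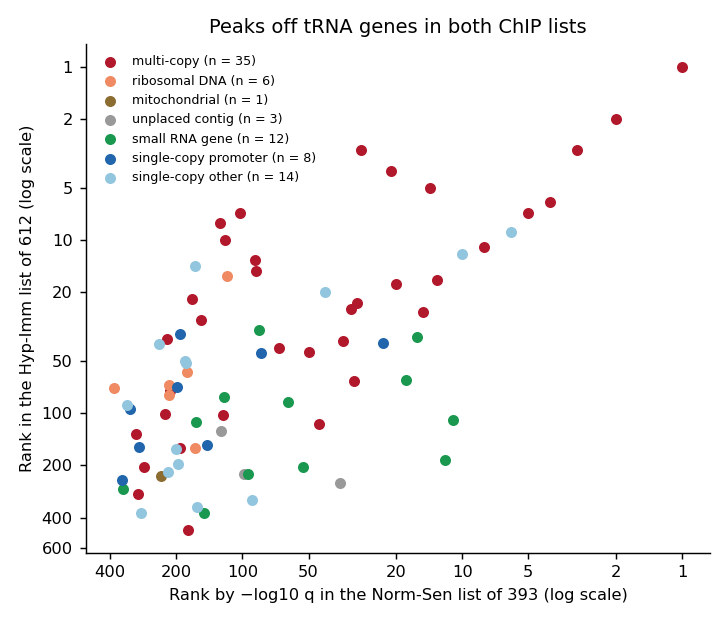
Rank by −log10 q in the Norm-Sen list of 393 peaks (x axis, log scale, rank 1 at the right) against the rank of the partner in the Hyp-Imm list of 612 (y axis, log scale, rank 1 at the top) for the 79 members with a partner, coloured by class. The strongest peaks, chiefly multi-copy ones, stand at the top right, where ranks 1 and 2 are the same peaks in both lists.

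The order of strength among shared members was similar in both ChIP-seq lists. Over the 79 members the Spearman correlation was 0.703 for the fold and 0.581 for the −log10 q. These are descriptions across regions, which share their sequence, copy number and mappability in both libraries. All of the 10 highest peaks of the Hyp-Imm list overlapped members, so the top of that list also lies off tRNA genes.

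Overlap with open chromatin was measured against each ATAC-seq list, by at least 1 bp. It was found for 86 members with the Norm-Pro list (37.7%, 31.4 to 44.4), 87 with Norm-Sen (38.2%, 31.8 to 44.8), 82 with Hyp-Pro (36.0%, 29.7 to 42.6) and 74 with Hyp-Imm (32.5%, 26.4 to 39.0). The shares for all 393 peaks were 34.4%, 31.3%, 32.3% and 22.9% in the same order, and the ATAC-seq peaks themselves covered 0.380%, 0.340%, 0.267% and 0.181% of the genome. The intervals of the 4 lists overlap for the members. Peaks on tRNA genes overlapped a Norm-Pro peak in 29.7%, a Norm-Sen peak in 21.8%, a Hyp-Pro peak in 27.3% and a Hyp-Imm peak in 9.70% of cases, and for Norm-Sen and Hyp-Imm their intervals, 15.8 to 28.9 and 5.64 to 15.3, lie below those of the members.

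Most members had a peak in all 4 ATAC-seq lists or in none of them. In all 4 there were 59 members (25.9%, 20.3 to 32.1), beside 18.3% of all 393 peaks. In none there were 125 (54.8%, 48.1 to 61.4), beside 55.0%, so this share was close to that of the whole list. The most frequent of the other patterns, a peak in every list but Hyp-Imm, was met by 12 members. Of those without a peak 86 were single-copy members away from promoters, 85.1% of that class. Multi-copy members overlapped the lists in 49.2% to 54.0% of cases, and the ATAC-seq peaks they met were near the top of their own lists. Their median percentile by −log10 q was at least 99.9 in each list, against 89.7 to 92.8 for the ATAC-seq peaks that single-copy members met.

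**Figure D3:**
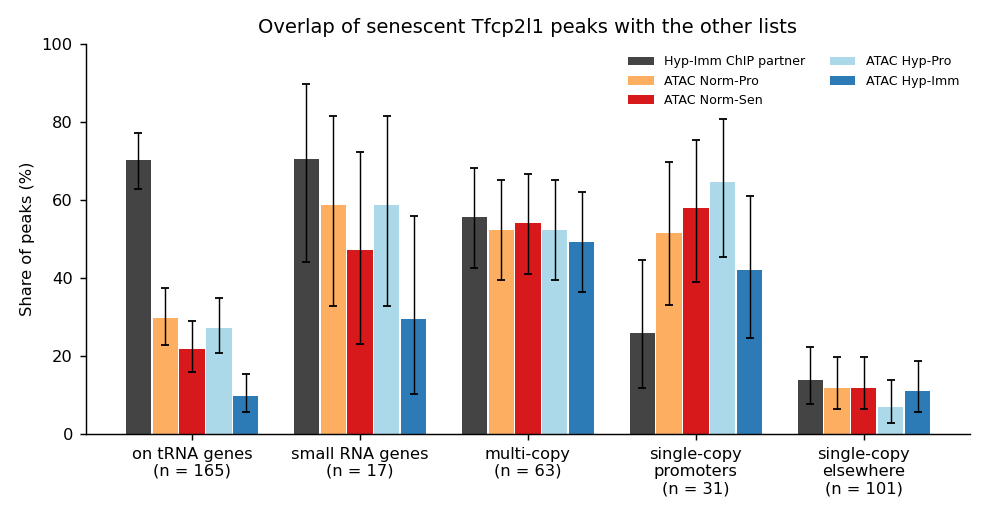
Percent of peaks (y axis) of 5 classes of senescent ChIP-seq peaks (x axis, with n) that overlap a Hyp-Imm ChIP-seq peak (dark grey) or a peak of each ATAC-seq list by its label, with 95% exact intervals as error bars. Multi-copy members overlap each ATAC-seq list in about the same share, while 6.93% to 11.9% of single-copy members away from promoters overlap one.

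Among the multi-copy members the leading group was like satellite DNA, the tandem repeats of centromeric heterochromatin. It comprised 14 members whose sequences were mutually alike, 13 of them with a partner and 9 of them in all 4 ATAC-seq lists, with a median −log10 q of 32.3, and each had its summit in masked sequence. Its strongest member, chr9:35305227-35305612, was the strongest peak of both ChIP-seq lists, with a fold of 33 and a −log10 q of 170 in Norm-Sen and 33 and 144 in Hyp-Imm. Its sequence had 33 copies in the assembly. Another, chr12:3109813-3110115, had a fold of 31 and a −log10 q of 96.8. In 7 members of the group, at the start of chromosome 9, the sequence repeated with a period of 234 bp, the unit length of the mouse major satellite. For such members the nearest TSS belonged to predicted genes, Gm10722, Gm10717 and Gm10715, and 9 of the 14 counted as promoter peaks through such genes.

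A second family of similar sequences was led by chr6:103649040-103649367 in an intron of Chl1, a neural cell adhesion gene. That sequence had 4 copies in the assembly, so the peak cannot be assigned to the Chl1 intron alone. Whether this family is satellite DNA as well was not tested. The peak had a fold of 37.2, the highest of all members, and a −log10 q of 160, and it ranked second in both ChIP-seq lists. Another sequence of the family, at chrX:143482915-143483201 upstream of the kinase gene Pak3, had no copy at 90% identity and so counts as single-copy, with a fold of 23.3 and a −log10 q of 47.8. It overlapped peaks of all 4 ATAC-seq lists, with folds of 27.5 to 36.6.

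Outside both families, the multi-copy members of highest −log10 q were chr15:75086657-75087000, 24867 bp from the TSS of the antigen gene Ly6c2 (fold 19.9, −log10 q 62.4), chr9:123461875-123462153 in an exon of Lars2, the mitochondrial leucyl-tRNA synthetase (21.2 and 42.0), chr3:5860486-5860794 between genes (20.0 and 39.3), and chr1:183299250-183299566 in an intron of Aida (18.3 and 33.2). These had between 3 and 8 copies. The member on chromosome 3 lay 109853 bp from the nearest coding TSS, and its partner had rank 4. Members in introns of Camk1d, Cmss1 with Filip1l, Cdk8, E030030I06Rik and Gphn had folds of 11.7 to 14 in Norm-Sen and of 10.5 to 26.4 in Hyp-Imm. The last values come from another list and give no difference between conditions. Each of these members overlapped a peak of all 4 ATAC-seq lists.

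A contrasting set of 9 multi-copy members had more than 1000 copies each, as interspersed repeats do. None of the 9 had a partner and none overlapped an ATAC-seq peak, and their −log10 q ran from 6.86 to 13. Of the 54 with 2 to 1000 copies, 35 had a partner and 30 a peak in every ATAC-seq list.

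Jarid2, a component of Polycomb repressive complex 2 and 1 of the genes the study examined, had 1 member, in an intron at chr13:44869513-44869756. Its fold was 10.8 and its −log10 q 13.4 in Norm-Sen, and its partner had a fold of 17.6, a −log10 q of 30.3 and rank 29 in Hyp-Imm. The sequence had 13 copies at 90% identity or more, although 91.3% of its 49-base words occurred once in the assembly. It overlapped a peak of each ATAC-seq list, with a fold of 23.0 in the list labelled Norm-Pro, 18.2 for Norm-Sen, 19.9 for Hyp-Pro and 21.7 for Hyp-Imm, and the Tfcp2l1 motif was not found in it. The ribosomal unit annotated at chr17:39843013-39848827, with 5815 bp, is a part of the ribosomal DNA, so likeness to the rest of it was not tested for this or any other member.

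Ribosomal DNA held 6 members, each with a partner and a peak in all 4 ATAC-seq lists. The 5 on the annotated unit had folds of 2.26 to 3.26, the lowest of the members, with −log10 q of 3.49 to 12.6. The sixth, at chr6:3201369, matched the unit at 96.6% identity elsewhere and had a fold of 12.1. The 3 mitochondrial members had folds of 6.98 to 9.70, and each overlapped all 4 ATAC-seq lists. Of the 7 on unplaced contigs 3 had a partner.

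Genes of small RNAs, other than tRNA, held 17 members with a median fold of 12.4. Of these, 7 lay on sequence like the 4.5S RNA, 3 on U6-like genes and 2 on 7SL RNA genes. The 7SL RNA genes encode the RNA of the signal recognition particle. Rn7s2 had a fold of 18.9 and a −log10 q of 43.5 with a partner at rank 110, and Rn7s1, beside the promoter of the ribosomal protein gene Rps29, had 15.2 and 24.2 with none. Both overlapped 3 ATAC-seq lists.

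Other genes of RNA polymerase III followed. Rn7sk, whose RNA holds the elongation factor P-TEFb inactive, had a fold of 14.2 and a −log10 q of 24.6, and Rmrp, the RNA of RNase MRP, had 11.1 and 15.9 with peaks in all 4 ATAC-seq lists. Rpph1, the RNA of RNase P, had 9.14 and 9.92 without a partner, and the vault RNA gene Vaultrc5 had 15.4 and 26.6 with one. A 5S-like gene, n-R5s33, and 3 U6-like genes had folds of 6.13 to 9.62 and overlapped no ATAC-seq list. These loci are named because they hold members, not because the whole class of such genes was scored.

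The 7 members on 4.5S-like sequence fell in 2 regions of chromosome 6. Those beside Ezh2, the methyltransferase of Polycomb repressive complex 2, were at chr6:47650549 (fold 15.1, −log10 q 43.4), chr6:47739766 (11.6 and 15), chr6:47748382 (21.4 and 40.3) and chr6:47778209 (12.4 and 20.1). All but the second had a partner and overlapped 3 ATAC-seq lists. The nearest lay 55599 bp upstream of the Ezh2 TSS, and its like stretch matched the Rn4.5s gene at 94% identity over 117 bases. The gene Rn4.5s itself, about 4 kb away, held no peak in any of the 6 lists. The sequences at chr6:47739766, chr6:47748382 and chr6:47778209 had 15 copies each in the assembly. Of their 49-base words 22.5%, 19.1% and 95.8% occurred once. For chr6:47650549 no other copy covered 50% or more of the peak at 90% identity, although its shorter like stretch recurred at Rn4.5s. Reads of like copies can be placed on any of them, so peaks here and none at the gene cannot be read as a difference between loci. In the Klrb1 cluster of natural killer receptor genes chr6:128802842-128803314 had a fold of 15.8 and a −log10 q of 39.5 with 92.6% identity over 95 bases, and 2 others had folds of 12.9 and 8.93.

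**Figure D4:**
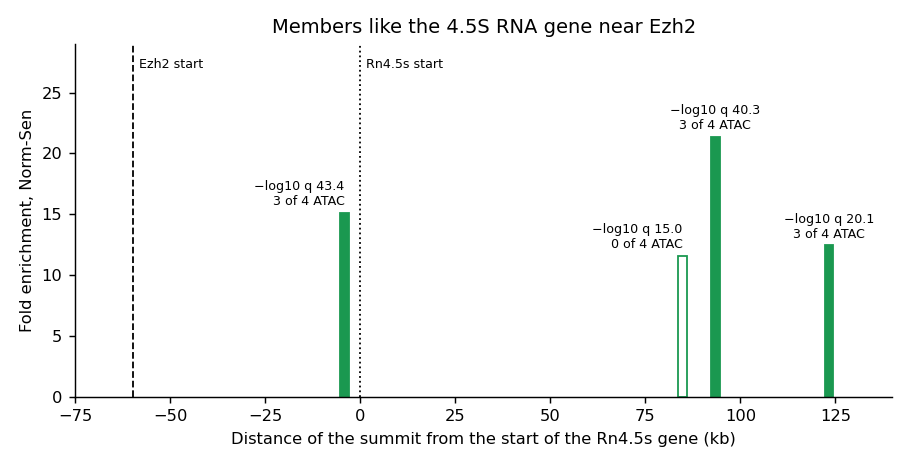
Fold enrichment in Norm-Sen (y axis) of the 4 members like the 4.5S RNA gene near Ezh2 by the distance of the summit from the start of the Rn4.5s gene in kb (x axis), with −log10 q and the number of ATAC-seq lists overlapped above each bar. Filled bars have a partner in the Hyp-Imm list, the dashed line marks the Ezh2 start and the dotted line the Rn4.5s start. The gene itself has no bar, and the highest bar, at a fold of 21.4, lies beyond it. Most of the bars stand on sequence with 15 copies in the assembly.

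The promoter elements of tRNA genes were rare in the members. Since members were chosen off tRNA genes, which hold these elements, a lower share than in tRNA peaks follows from the rule. The B box, an element of 11 bases near the middle of the gene, was searched with at most 1 mismatch in the 200 bp centred on the summit, in either orientation. It stood in 2 of 221 members (0.905%, 0.110 to 3.23), against 0.51% of all 200 bp windows of the genome and 122 of 165 tRNA peaks (73.9%, 66.5 to 80.5). One was Vaultrc5. The other was single-copy, chr7:19301175-19301416, 8290 bp from the TSS of Fosb, an AP-1 subunit gene. Its fold was 13.7 and its −log10 q 20.6, with a partner at rank 316 but no ATAC-seq peak. Whether this sequence is a tRNA gene that RefSeq does not list was not tested. A window of 81 bases of it, chr7:19301258-19301338 on the plus strand of GRCm38, follows with the B box match in capitals. It is labelled by the nearest coding gene.
Fosb: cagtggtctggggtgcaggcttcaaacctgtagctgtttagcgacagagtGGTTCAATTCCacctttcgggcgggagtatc

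The A box, with at most 1 mismatch, stood in 17 members (7.69%, 4.54 to 12), against 5.57% of genome windows and 82 tRNA peaks (49.7%, 41.8 to 57.6). The interval of the members includes the genome value.

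The Tfcp2l1 consensus, 14 bases long, was searched with at most 2 mismatches in the same windows and on both strands. It stood in 15 of 221 members (6.79%, 3.85 to 10.9), against 0.514% of genome windows and 14 of 165 tRNA peaks (8.48%, 4.72 to 13.8). Of the 15 windows 11 had the centre of the match within 50 bp of the summit, and none of the 15 held a B box. Genome windows are not matched to the members in base composition. With at most 1 mismatch it stood in 4 of 221 members (1.81%, 0.495 to 4.57) and in 0 of 165 tRNA peaks (0%, 0 to 2.21). These intervals overlap.

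Matches were concentrated in the single-copy members that were found in both ChIP-seq lists. Of 22 such members 9 held the motif (40.9%, 20.7 to 63.6), against 5 of 110 single-copy members without a partner (4.55%, 1.49 to 10.3) and 1 of 63 multi-copy members (1.59%, 0.0402 to 8.53). The first interval does not overlap the other ones. This share depends on what is called single-copy. When 6 members that are like another senescent peak, all with a partner and none with the motif, were also left out, it was 9 of 16 (56.2%, 29.9 to 80.2). That second rule was tried after the first result was known, so the first is given as the main value. With at most 1 mismatch 4 members matched, at Pard6b, Malat1, Xpo1 and Usp22, and all 4 had a partner. Strength moves with the partner, since single-copy members had a median −log10 q of 11.3 with one and 5.69 without, and its part in the difference was not tested.

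**Figure D5:**
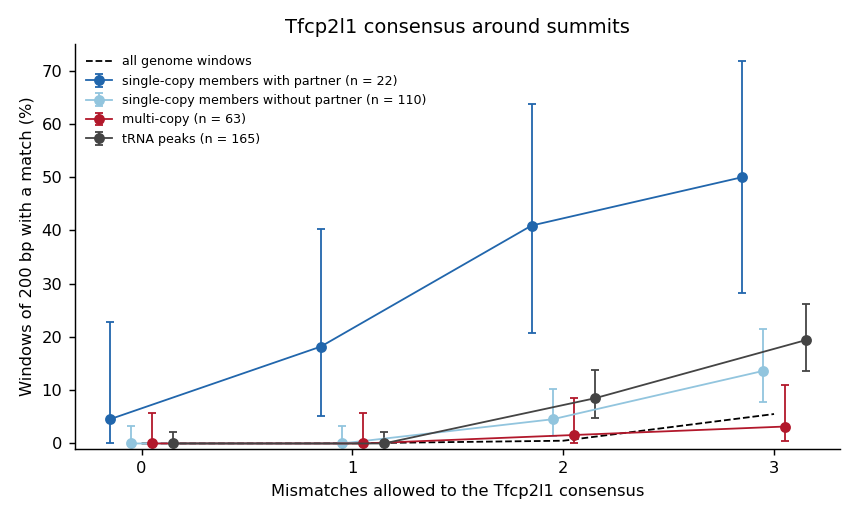
Percent of 200 bp windows around the summit that hold the Tfcp2l1 consensus (y axis) against the number of mismatches allowed (x axis), with 95% exact intervals as error bars, for 4 sets of senescent peaks, and for all windows of the genome (dashed line). At 2 mismatches single-copy members with a partner stand at 40.9%, those without at 4.55%.

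Peaks of the Hyp-Imm list off tRNA genes showed a like division. The motif stood in 10 of 75 with a senescent partner (13.3%, 6.58 to 23.2) and in 7 of 398 without (1.76%, 0.710 to 3.59). These 75 are for the most part the same loci as the shared members, so they are no second observation.

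The single-copy members with the motif and a partner lay at the following places. The strongest, chr19:5803322-5803896, was 970 bp upstream of Malat1, an abundant nuclear long non-coding RNA, with a fold of 17.1 and a −log10 q of 55.1 and rank 9 in Hyp-Imm. It overlapped the ATAC-seq lists Norm-Pro and Norm-Sen and neither of the others. The member with the exact consensus, chr2:168115001-168115195, lay 34125 bp from the TSS of the polarity gene Pard6b and overlapped no ATAC-seq peak, with a fold of 8.44, rank 240 by −log10 q in Norm-Sen and a partner at rank 40.

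At promoters the motif stood with a partner at the zinc finger gene Unk (fold 16.9, −log10 q 38.6), at Arrdc3, an arrestin-domain gene (9.53 and 11), at Xpo1, the nuclear export receptor (7.22 and 6.66), at Usp22, a deubiquitinase of the SAGA complex (6.26 and 4.66), and at Zfp532 (8.76 and 10.4). All but the last overlapped at least 3 ATAC-seq lists. Distal members with the motif and a partner lay 37674 bp from Atf7ip (16.4 and 30.1) and 76656 bp from the chromatin remodeller gene Chd2 (6.72 and 5.31). The multi-copy member in an intron of Aida also held it.

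Single-copy members with a partner but without the motif at this setting included the promoters of Kmt2a, a histone H3 lysine 4 methyltransferase (12.7 and 21.6), of Rnf44 (9.62 and 14) and of Hmgn2, a nucleosome-binding protein (6.80 and 5.41). The first pair overlapped all 4 ATAC-seq lists and the last none. A distal member at chr11:109011739-109012100, 88774 bp from the Wnt feedback gene Axin2, had a fold of 10.3 and rank 165 in Norm-Sen and a partner at rank 14. The sequences of 4 masked members on chromosome 17 near Tcp10c and of 1 on chromosome 13 near Zfp825 were mutually alike and are among those left out above.

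Promoter members without a partner were 23 of 31 and weak, with a highest −log10 q of 9.54 at Paxip1, a DNA damage response gene. Next were Wasf1 (9.41), Inava (9.16), Dhrs13 (8.35), the histone deacetylase gene Hdac2 (8.27), Prdm10 (8.16), the mitochondrial chaperonin gene Hspd1 (7.96) and Flcn, the folliculin gene (7.59). Hdac2, Prdm10 and Hspd1 overlapped all 4 ATAC-seq lists. The single-copy promoter class overlapped a Norm-Pro peak in 51.6%, a Norm-Sen peak in 58.1%, a Hyp-Pro peak in 64.5% and a Hyp-Imm peak in 41.9% of 31 cases, with intervals that overlap, and 6 of them met no ATAC-seq peak. Its median GC content was 62.1%.

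Away from promoters, single-copy members without a partner were 87 of 101. The strongest lay 73598 bp from Atp11b at chr3:35680431-35680676, with a fold of 11.3, a −log10 q of 14.4 and a peak in all 4 ATAC-seq lists. Members in introns of the engulfment gene Elmo1 (10.7 and 13.4), Ahnak (10.2 and 12.2) and March4 (9.14 and 9.92) followed and met no ATAC-seq peak. The lowest −log10 q of all members, 2.38, was that of chr14:33945748-33945921 near Gdf2, with a fold of 4.65.

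Genes were assigned to members by the rule of GREAT, in which a gene owns 5 kb upstream and 1 kb downstream of its TSS and an extension of up to 1 Mb to the next gene. Of 21911 protein-coding genes 331 (1.51%) had a member. Of 30 genes of pluripotency, Polycomb, cell cycle inhibition and hypoxia listed one by one, 3 had one, namely Ezh2, Jarid2 and Klf2. Ezh2 had the 4 members on 4.5S-like sequence, most of which had 15 copies in the assembly. Klf2, a factor of naive pluripotency, had a single-copy member 53138 bp away at chr8:72372045. Its fold was 7.04 and its −log10 q 6.00, with no partner and no ATAC-seq peak. Sox2, Sox9, Tgfa, Cdkn1a and Cdkn2a had none.

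None of 25 genes of the senescence-associated secretory phenotype, such as Il6 and Cxcl1, had a member, nor did any of 21 subunits and factors of RNA polymerase III or of 67 replication-dependent histone genes. Of 85 ribosomal protein genes 2 had one (2.35%), Rps29 through the 7SL RNA gene beside it and Rpl38 from 251320 bp away. With 1.51% of all genes owning a member, lists of this size are expected to hold few, and an absence says only that no such peak was called.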

How the data were processed

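Mouse ChIP-seq and ATAC-seq peak lists of 6 libraries were used. ATAC-seq reads were aligned by the authors to GRCm38 (mm10) with Bowtie2, moved to the Tn5 cutting site, and MACS2 called the peaks of each library (FDR 0.05). ChIP libraries were made by ChIPmentation. For them the submitters' processing notes name Bowtie, Bowtie2, SAMtools and MACS2 without roles. No source used here states the build of the ChIP-seq peaks, whose contig names match GRCm38. The deposited fold enrichment is the ratio of summit signal to local background that the authors obtained from MACS2. The −log10 q was also computed by the authors with MACS2, adjusted within the library. The deposited score is 10 times the −log10 q rounded down and was not used. Depth is unknown.

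Positions are 1-based. tRNA genes (425) are from RefSeq and other genes from GENCODE M21. Motifs were searched on both strands in 200 bp around summits, with at most 2 mismatches for Tfcp2l1 and 1 for the A and B boxes. Copies and likeness were found with BLAST+ 2.17.0, small RNA genes by overlap or 85% identity over 70 bases, and unique 49-base words by exact matching. Other steps ran in Python 3.11.15 with pandas 2.3.3, numpy 2.4.6 and scipy 1.17.1, and the motif search was tested on simulated data. Shares carry 95% exact Clopper-Pearson intervals. With 1 library per condition no test was made.

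The members, the lists and the rule for named genes were chosen with earlier results of these data known. The rule named the 15 strongest members with and without a partner, at promoters and in all 4 ATAC-seq lists, members on other small RNA genes, those with the best motif, and those of listed genes. Only some of these are given in the text. The sequence classes were set after the values were seen, and a second rule for single-copy members was tried after the motif counts under the first were known. Both values are reported. Alternatives covered the definitions of member, partner, open region, promoter, repeat and motif.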

Additional observations from a re-analysis of the deposited data

How the results depend on the processing

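Of 61 alternative values for 12 results, 38 stayed within the 95% interval of the value reported, or within 1.5 times a count, and 23 did not. A limit on strength moved most. At a −log10 q of 10 or more, 76 members were left, of which 80.3% had a partner, 69.7% overlapped an ATAC-seq peak of Norm-Pro, 71.1% one of Norm-Sen, 65.8% one of Hyp-Pro and 64.5% one of Hyp-Imm, and 42.3% had a masked summit. Without multi-copy, ribosomal, mitochondrial and contig members, an alternative added after seeing the data, 22.8% had a partner and 25.5% overlapped Norm-Pro, 25.5% did so for Norm-Sen, 24.8% for Hyp-Pro and 19.5% for Hyp-Imm. With an ATAC-seq peak within 1 kb they became 49.6%, 47.8%, 45.2% and 42.5% in that order, and with the summit inside the peak 31.1% for Norm-Pro, 27.2% for Hyp-Pro and 25% for Hyp-Imm. RefSeq genes in place of GENCODE gave 11.8% of members at a promoter. The Tfcp2l1 motif stood in 1.81% with at most 1 mismatch and 13.6% with at most 3, and the B box in 0% with no mismatch.

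Leaving out members that are like another senescent peak, also added after the data were seen and with the first motif counts known, gave 56.2% in place of 40.9% for single-copy members with a partner. Conditions by the file names moved no ATAC-seq share out of its interval. No paired analysis was possible because each condition has 1 library. Reads, input libraries and replicates were not used here, so that an absent partner or open region may lie below the calling threshold.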
